A study of Homo sapiens with 2 samples.

Results

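Circular RNAs (circRNAs) of 10 host genes of the PI3K, mTOR and RAS-MAPK pathways were described, namely PIK3CB, PDPK1, AKT2, TSC2, RPTOR, RICTOR, RASA3, RAPGEF2, MAP2K1 and PTK2. The members were the rows of the deposited table whose host field, split at commas, held exactly 1 of these names, which gave 13 circRNAs of 1485 in all. The table holds 2 libraries of SW620, a human colorectal cancer cell line, 1 of cells given HD-SB, a herb pair spelled Hedyotis diffusa-Sculellaria barbata in the labels, at 1 mg/mL for 24 h, and 1 labelled Control, with no further description of that control. RNA was depleted of ribosomal RNA and digested with RNase R, an enzyme that removes linear RNA, so host mRNA levels were not measured. With 1 library in each group no difference between them has a replicate error, and no test was made.

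A circRNA forms when the end of a downstream exon is spliced back to the start of an upstream exon of the same pre-mRNA, and the read that crosses this junction is what is counted. In the pathway, PI3K makes the membrane lipid that recruits PDPK1 and AKT kinases, AKT restrains the TSC complex, and TSC in turn restrains mTOR, a kinase that drives growth. RAS-family GTPases feed both PI3K and the RAF-MEK-ERK cascade, and these pathways are among the most often activated in colorectal cancer. A circRNA of such a gene is not a measure of the activity of the protein.

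The HD-SB library held 11570 listed back-splice reads on 1475 circRNAs and the Control library 91 on 32, so 1 read was worth 86.4 CPM (reads per 1000000 listed back-splice reads) in HD-SB and 10989 CPM in Control. The smallest listed value of each library was taken as 2 reads, which is an assumption and sets all read counts here. On it, "not listed" is read as 0 or 1 read, which also assumes that no other filter removed the circRNA. Of markers of colonic epithelium, 3 of 15 hosted a circRNA (VIL1, EPCAM and EPHB2, with 54 HD-SB reads and none listed in Control). None of 8 fibroblast and smooth muscle, 8 leukocyte and 5 endothelial markers did. The table named 1073 single hosts in all, and the share of all genes that host a circRNA was not set beside these counts. Of all 1485 circRNAs, 1453 were listed in HD-SB alone. Hosting a circRNA is not the same as expressing a gene, so the marker counts describe the label only in part. The absence of the other markers does not show which cells were present.

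The deposited positions of the matched members were not those of their hosts' exons in GRCh38, but their spans were. Span is the distance from the first to the last base of the circle on the genome, introns included, and it was set against every pair of exons of the named host in the GENCODE 29 annotation of GRCh38. Over the table, 1245 of 1313 circRNAs with an annotated host (94.8%) had an exon pair of exactly the deposited span, against 1.07% to 3.05% when 1 to 5 bases were added to or taken from it. Of 181 hosts with at least 2 circRNAs that each had a single such pair, 175 (96.7%) had a common distance between deposited and annotated positions. Of the 13 members, 11 had such a pair. Both circRNAs of MAP2K1 lay 292338 bases from their exon pairs and both of PTK2 lay 1010099 bases from theirs. Exon numbers below rest on this match of spans and are counted in 1 transcript for each host, the highest ranked protein-coding one that holds the pair. They are the exons between the outer ends, since no read shows which inner exons a circle kept.

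**Figure D1:**
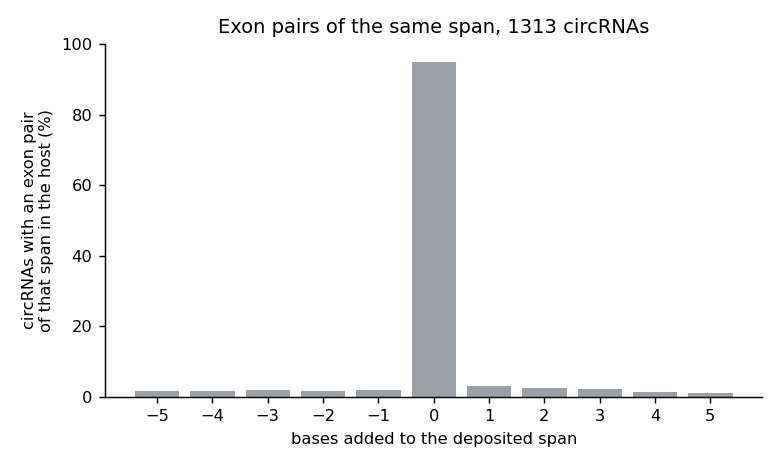
Share of 1313 circRNAs (vertical axis, %) whose annotated host held an exon pair of the deposited span after 0 to 5 bases were added or taken away (horizontal axis, bases). The bar at 0 stands at 94.8% and no other bar is above 3.05%.

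The back-splice junctions of 8 members are shown because the junction is the only stretch that tells a circle from its linear mRNA. Each line has the last 20 bases of the downstream exon in lower case and then the first 20 bases of the upstream exon in capitals, in the direction of transcription, built from GENCODE 29 transcripts of GRCh38. The other members had UTR at the junction, were left out for their chromosome, or had no exon pair of the same span. None of the junctions of the 11 matched members occurred in a linear transcript of that annotation. The region in brackets runs from the outer end of one exon to the outer end of the other.
PIK3CB, exons 12 to 14 of 22 (chr3:138688875-138694907, minus strand): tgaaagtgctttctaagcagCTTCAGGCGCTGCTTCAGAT
PDPK1, exons 2 to 11 of 14 (chr16:2557703-2586893, plus strand): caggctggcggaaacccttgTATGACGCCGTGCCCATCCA
TSC2, exons 7 to 10 of 42 (chr16:2056196-2058873, plus strand): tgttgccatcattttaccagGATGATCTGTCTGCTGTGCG
RPTOR, exons 2 to 5 of 34 (chr17:80625691-80730706, plus strand): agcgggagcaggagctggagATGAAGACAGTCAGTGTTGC
RICTOR, exons 3 to 7 of 38 (chr5:38990949-39021136, minus strand): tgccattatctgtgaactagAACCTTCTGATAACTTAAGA
RAPGEF2, exons 2 to 3 of 24 (chr4:159304342-159314768, plus strand): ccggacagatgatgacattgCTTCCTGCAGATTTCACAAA
MAP2K1, exons 2 to 3 of 11 (chr15:66435027-66436892, plus strand): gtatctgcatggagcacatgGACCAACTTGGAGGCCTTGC
MAP2K1, exons 6 to 7 of 11 (chr15:66481755-66485191, plus strand): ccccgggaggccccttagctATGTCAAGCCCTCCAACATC

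All 13 members were listed in the HD-SB library and none in the Control library. The same was true of 1453 of all 1485 circRNAs, so this listing does not set the members apart. The members held 81 HD-SB reads, 0.700% of the HD-SB library (0.556 to 0.869, 95% Clopper-Pearson interval), against no listed read in Control. All intervals here cover counting error only, because amplified reads are not independent molecules, and in a bulk library more cells with a circle and more copies per cell cannot be told apart. The median member had 5 reads, as had the median circRNA of the HD-SB library. RASA3, MAP2K1 and AKT2 gave the 3 highest circRNAs, with 39 of the 81 reads (48.1%, 36.9 to 59.5), and 4 members stood at the listing minimum of 2 reads.

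**Figure D2:**
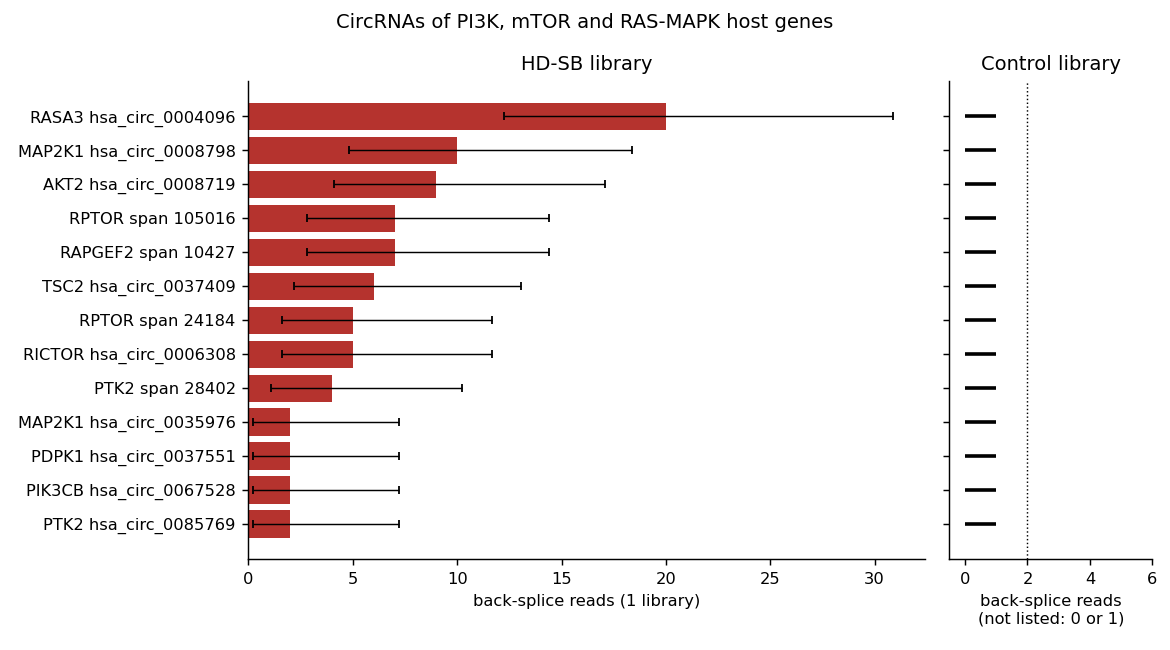
Back-splice reads (horizontal axes) of the 13 members in the HD-SB library (left, bars with 95% Poisson intervals) and in the Control library (right, where lines cover the 0 or 1 read that an unlisted circRNA may have, left of the dotted listing minimum of 2). HD-SB reads run from 2 to 20, and no member is listed in Control. Members with no catalogue identifier are named by their span in bp.

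The genes of RAS, RAP and MAPK control gave the most reads, 39 HD-SB reads on 4 circRNAs (27.7 to 53.3, 95% Poisson interval) and none listed in Control. RASA3 alone held 20 of them, and the interval overlaps that of the mTOR group below (14.6 to 34.5). RASA3 encodes a GTPase-activating protein that switches RAS and RAP off. Its circRNA hsa_circ_0004096 (chromosome 13, 114806476 to 114839312 as deposited, span 32837 bp) had 20 reads, or 1729 CPM, in HD-SB and was not listed in Control. It was the highest member, with fewer reads than 4.68% of HD-SB circRNAs, and shared its count with 8 others at 20 reads, among them circRNAs of ATXN2 and HNRNPC next to it in order. No exon pair of RASA3 had its span, but exons 2 to 4 of 24 had a span 1 base longer, 32838 bp. The reason for that base was not tested.

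MAP2K1 encodes MEK1, the kinase that phosphorylates ERK, and it gave circles from separate parts of the gene. The circRNA of exons 2 and 3 (hsa_circ_0008798, chromosome 15, 66727365 to 66729230 as deposited) had 10 reads in HD-SB (4.80 to 18.4) and was not listed in Control. That of exons 6 and 7 (hsa_circ_0035976, 66774093 to 66777529) had 2 reads in HD-SB (0.242 to 7.22) and was not listed in Control. The circles share no exon, and the intervals of their reads overlap.

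RAPGEF2 encodes an exchange factor that switches RAP GTPases on, the opposite step to that of RASA3. Its circRNA of exons 2 and 3 (chromosome 4, 160225494 to 160235920 as deposited, no circBase identifier) had 7 reads, or 605 CPM, in HD-SB and was not listed in Control. With 310 bases of exon it was the shortest of the matched members.

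The genes between PI3K and AKT gave 13 HD-SB reads on 3 circRNAs (6.92 to 22.2) and none listed in Control. AKT2, one of the AKT kinases, accounted for 9 of them (4.11 to 17.1) with hsa_circ_0008719 (chromosome 19, 40761065 to 40771258 as deposited), which matched exons 2 to 4 of 14. That circle was the single matched member with UTR, 84 of its 371 bases, the other 287 being coding. PIK3CB, the beta catalytic subunit of PI3K, had 2 reads on hsa_circ_0067528 (chromosome 3, 138407717 to 138413749). PDPK1, the kinase that phosphorylates AKT at the membrane, had 2 reads on hsa_circ_0037551 (chromosome 16, 2607704 to 2636894), and neither was listed in Control. At 10 exons and 1319 bases, the PDPK1 circle was the longest of the matched members after splicing. The acceptor side of its junction also occurs in PDPK2P, a near-identical copy of the gene, so its 2 reads are uncertain on that side. The donor side was found in no other gene.

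The genes of the mTOR complexes and their control gave 23 HD-SB reads on 4 circRNAs (14.6 to 34.5) and none listed in Control. TSC2 encodes tuberin, which turns off the GTPase that activates mTOR complex 1. Its circRNA hsa_circ_0037409 (chromosome 16, 2106197 to 2108874 as deposited) had 6 reads in HD-SB. Its span fitted 2 exon pairs, and the pair printed above is the one that lies 50001 bases from the deposited position, the same distance as the pair of PDPK1 on that chromosome. RICTOR, the defining subunit of mTOR complex 2, had 5 reads in HD-SB on hsa_circ_0006308 (chromosome 5, 38991051 to 39021238), which matched exons 3 to 7.

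RPTOR, the scaffold of mTOR complex 1, gave 12 HD-SB reads on 2 overlapping circRNAs, neither with a circBase identifier and neither listed in Control. The first (chromosome 17, 78599491 to 78704506 as deposited) had 7 reads and matched exons 2 to 5, and its 105016 bp was the longest span of any member. The second (78593427 to 78617610) had 5 reads, carried the small-RNA names snoU13 and Y_RNA beside RPTOR, and had no exon pair of its span of 24184 bp. Counted from the start of the first circle, its end lay 18120 bases along, which is where exon 3 ends. Its start lay 6064 bases before exon 2, at a point inside intron 1. So one end of the second circle met an annotated exon end and the other did not.

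PTK2 encodes focal adhesion kinase, which passes signals from integrins to SRC, PI3K and RAS. Its 2 circRNAs held 6 HD-SB reads (2.20 to 13.1) and none listed in Control. One, of exons 6 to 10 (chromosome 8, 141828376 to 141856777 as deposited), had 4 reads and no circBase identifier. The other, hsa_circ_0085769, of exons 4 to 7 (141856359 to 141889736), had 2 reads. They overlap by 419 bp and share exons 6 and 7, so part of each circle has the same sequence and the junction alone separates them.

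**Figure D3:**
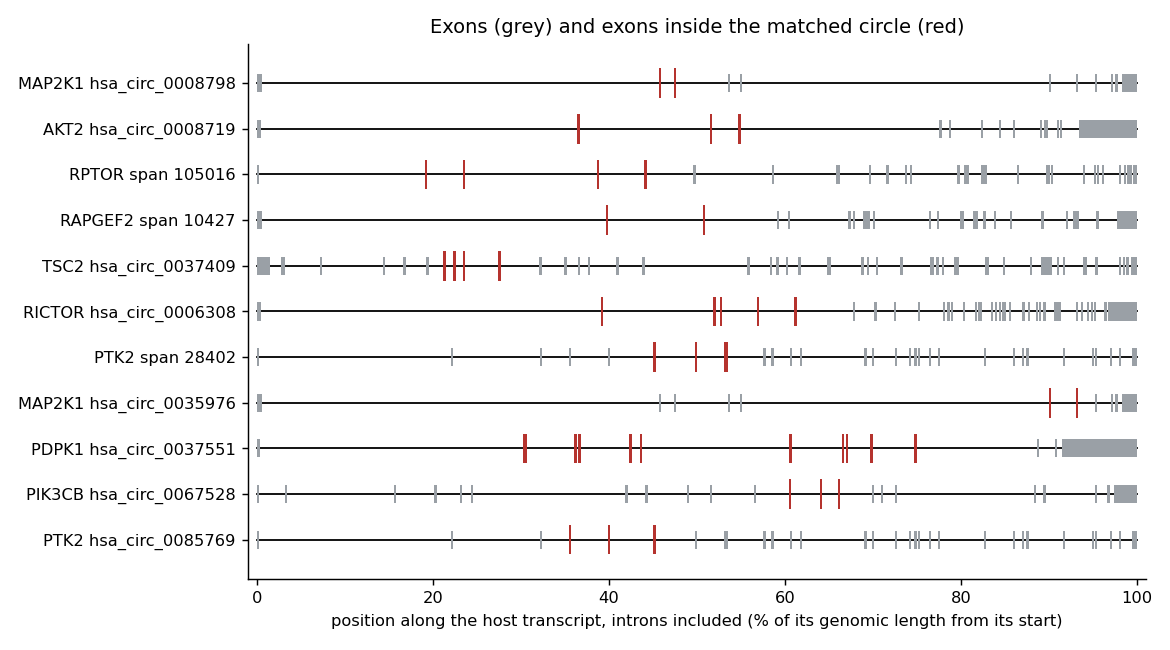
Position along the host transcript from its start, introns included (horizontal axis, % of its genomic length), of all exons (grey) and of the exons inside the matched circle (red) for 11 members. Very short exons are drawn at a minimum width. No circle holds the first or the last exon, and the circles of MAP2K1 exons 2 to 3 and 6 to 7 lie apart while those of PTK2 overlap.

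On the log2(CPM + 172.9) scale, all 13 members passed a ratio of 2-fold or more, HD-SB over Control. So did 97.8% of all circRNAs, and the members' count is near that background. The 1453 circRNAs that passed were those listed in HD-SB alone. Each of them passes by construction, since the pseudocount equals the listing minimum of 2 HD-SB reads. The direction comes from the pseudocount, which is worth 2 reads in HD-SB and 0.0157 reads in Control. With 0.5 read in each library in its place, all 13 members had a log2 ratio below 0, with a median of -3.53. With the pseudocount in CPM, the median log2 ratio was 1.81 for the members and 1.81 for all 1485 circRNAs. The members ran from 1.00, for the 4 with 2 reads, to 3.46 for RASA3. For none of them did an interval that covers both 0 and 1 Control read leave out an equal share. With 1 unlisted read in Control the ratio of read shares for RASA3 had an interval of 0.0252 to 6.52, and with 0 it had a lower end of 0.0388 and no upper end. With 1 unlisted Control read the 4 members with 2 HD-SB reads each had an interval of 0.000819 to 0.928, below an equal share. The intervals of the other members held an equal share. With 0 Control reads no member had an upper end, so an interval over both cases could not lie below an equal share.

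The depth of Control sets this limit. At the HD-SB share, all members together would have had 0.637 reads in Control and RASA3 0.157. A circRNA would have needed 254.3 reads in HD-SB to reach 2 Control reads at an equal share, and 1 circRNA of the table had that many. A lower share in Control than in HD-SB was therefore not detectable for these hosts at this depth. A circRNA with 2 Control reads, 2.20% of its listed reads, would have been listed if no other filter removed it, and no member was. Their absence from the Control list does not show that they were absent from control cells.

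The 13 members had a median span of 24184 bp, against 4070 bp for the other circRNAs of the HD-SB library. For the 11 matched members the median span was 10427 bp, against 4086 bp for the 1232 other matched circRNAs. Of all members 3 had a span below 4070 bp, the TSC2 circle and both of MAP2K1, and 9 of 13 spanned at least 10000 bp, against 418 of 1462 (28.6%). After splicing, the 11 matched members had a median of 376 bases (310 to 1319), against 371 for the others, and 4 exons against 3. The intron before the circle had a median of 19829 bp (676 to 79899), against 7360 bp, and the intron after it 8899 bp (1796 to 23303), against 6605 bp. Both introns were shorter than those medians of the others for TSC2, with 676 bp before and 1796 bp after its circle, and for PIK3CB, with 3999 bp and 4071 bp. GC content was 51.5% at the median of the members and 49.8% at that of the others. These values describe 11 circles of 9 genes and were not tested.

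**Figure D4:**
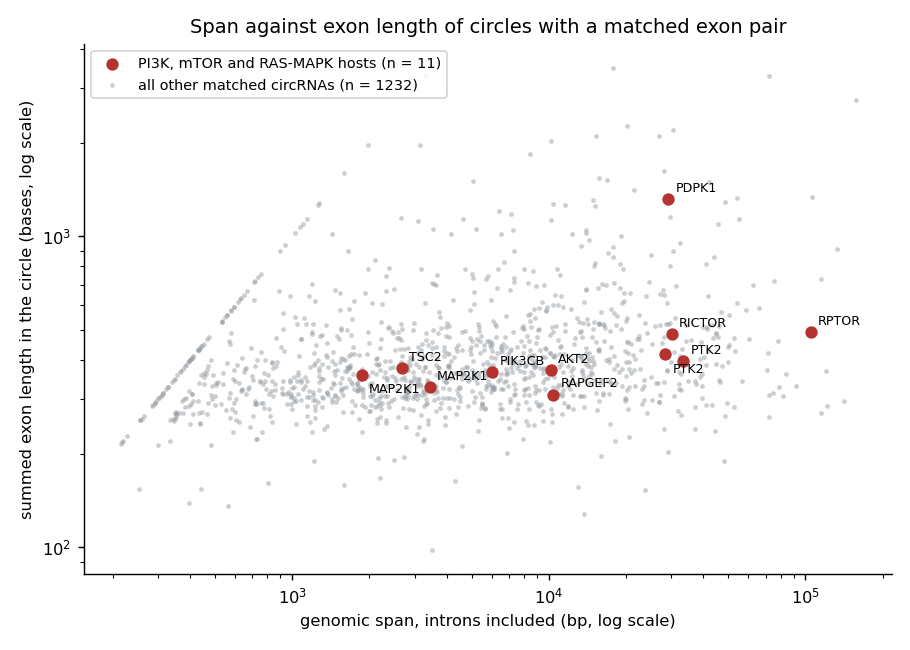
Genomic span (horizontal axis, bp, log scale) against the summed length of the exons in the circle (vertical axis, bases, log scale) for 11 members (red, named by host) and 1232 other circRNAs with a matched exon pair (grey). The red points spread from 1866 to 105016 bp of span, while 10 of them lie between 310 and 492 bases of exon and PDPK1 lies at 1319.

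Exon 2 was the first exon of the circle in 5 of 11 matched members (45.5%, 16.8 to 76.6), those of AKT2, PDPK1, RPTOR, RAPGEF2 and MAP2K1, against 389 of 1232 other matched circRNAs (31.6%, 29.0 to 34.2). No member circle held the first or the last exon, and 3 of the 1232 others held the first and 3 the last. A circBase identifier, the entry of a public catalogue of circRNAs, was given for 9 of 13 members (69.2%, 38.6 to 90.9) and for 1106 of 1462 others in HD-SB (75.7%). The 4 without one were both of RPTOR, that of RAPGEF2 and the 4-read circle of PTK2, and they held 23 of the 81 reads. The intervals of these shares take each circRNA as independent. MAP2K1, RPTOR and PTK2 gave 2 circRNAs each and the hosts were chosen, so the intervals give no spread between genes.

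The title of the study names hsa-miR-204-5p, whose seed, bases 2 to 8, is in capitals in the RefSeq sequence below (GRCh38.p14, chr9:70810031-70810052, minus strand).
hsa-miR-204-5p: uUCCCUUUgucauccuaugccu
The 7 letters that pair with the seed, AAAGGGA, were searched on the circle strand, the junction included. They occurred in 0 of 11 matched members and in 55 of 1232 other matched circRNAs (4.46%). In the members, 5220 bases were searched, and at the 0.114 matches per 1000 bases of the others 0.593 matches would be found. The letters are a description and show no binding or its absence.

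Of a wider list of 92 genes of receptors and adaptors, PI3K lipid kinases and phosphatases, AKT, mTOR, RAS and RAP control and the MAPK cascade, 12 hosted a circRNA. These were the 10 hosts above and 2 of the 82 genes that are not members. The 10 were chosen as hosts in this table, so the 12 and the group counts below follow largely from that choice. The share of all genes that host a circRNA was not computed. PIK3R2, a regulatory subunit of PI3K, had 7 HD-SB reads on hsa_circ_0005571, a row with 2 host names. SRC, a kinase that acts with focal adhesion kinase, had 3 reads on a row with 5 host names, and neither was listed in Control. By group, mTOR control had 3 hosts of 21 genes and 23 reads, RAS and RAP control 2 of 18 and 27 reads, the MAPK cascade 1 of 11 and 12 reads, AKT 2 of 10 and 11 reads, PI3K 2 of 15 and 9 reads, and receptors and adaptors 2 of 17 and 9 reads. No gene of the list had a listed Control read.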

How the data were processed

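The authors' values carry the name TPM per the file headers. They are CPM in practice, since each deposited column summed to 1000000 and every listed value (100%) was within 0.01 of a whole number of steps, with no scaling by length. The step was the smallest listed value of the column divided by 2, so the minimum of 2 reads was set and not observed. Values at odd numbers of steps, such as 7 in HD-SB and 3 in Control, would be fractions of a read if the smallest value were 1 read. The values were divided by that step to give reads, and the filler 0.001 was taken as not listed. The submitters' processing notes name HISAT2 2.1.0, FastQC and GRCh38. The circRNA caller, its filters and its strand setting, and whether duplicates were removed, are not given in the sources used.

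Shares have Clopper-Pearson and reads Poisson intervals (scipy 1.17.1). Intervals of shares of circRNAs take each circRNA as independent, which circles of 1 host are not. The pseudocount was the 5th percentile of listed values. Exon pairs were searched in GENCODE 29, and the transcript was chosen by coding status, APPRIS rank, CCDS tag and length. Where a span fitted several pairs, the one at the distance of the nearest single match on the chromosome was taken. Recovery of reads and of exon pairs was run on simulated data, as a check of the code only. Simulated data cannot show that the listing minimum or the match of spans holds in the deposited data. Every member was named, with up to 5 other genes of the wider list by HD-SB reads and the circRNAs next in order to the top member. Members, lists and tests were chosen with earlier results of these data known. Alternatives for the host rule, read minimum, pseudocount, scaling, filter, fold and span were tried.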

Additional observations from a re-analysis of the deposited data

How the results depend on the processing

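The 13 members became 8 with at least 5 reads in HD-SB. Of the 13 past 2-fold, HD-SB over Control, a pseudocount 4 times larger left 3 of 13, against 296 of 1485 over all circRNAs. A filter on means at or above the median left 8 of 8, against 765 of 797, and one on the top 25% of means 3 of 3, against 366 of 398. A 4-fold threshold left 6 of 13, against 596 of 1485, and a pseudocount of 0.5 read per library 0, against 4 of 1485. Intervals of the ratio of read shares wholly above 1, with unlisted taken as 0 reads, left 0 of either. Intervals below 1 were not counted. A larger pseudocount shrinks each ratio, the filters remove members, and 0.5 read is worth more CPM in Control than in HD-SB, all by construction. With 0.5 read the log2 ratio was below 0 for all 13 members, with a median of -3.53 for them and for all circRNAs. The pathway list had 2 hosts without the 10 members. The 11 exon pairs became 0 with the span 1 base shorter and 1, that of RASA3, with it 1 base longer. The remaining counts were within 1.5 times, among them 12 members with a listed host as the sole name, an alternative chosen after seeing the data. The read share ran from 0.599% to 0.727% under all alternatives tried, inside its interval, and the circBase share was 55.6% at 3 reads or more. No paired analysis was possible because there was a single library in each group. The 91 Control reads limit every ratio.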

Other observations

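Of the 11 matched members, 10 were coding throughout, all but AKT2. In the host's reading frame none of these 10 met a stop codon before the junction, which follows from their being annotated as coding throughout. In 5 of them, those of RPTOR (492 bases), RICTOR (486 bases), PIK3CB (366 bases), MAP2K1 exons 6 to 7 (327 bases) and the PTK2 circle of exons 6 to 10 (417 bases), the length was divisible by 3 and the frame ran round the circle with no stop codon. A length divisible by 3 keeps the frame, so only the codon across the junction can be new. The run round the circle thus nearly follows from the annotation and is no evidence of translation. In the other 5, of MAP2K1 exons 2 to 3, RAPGEF2, TSC2, PDPK1 and PTK2 exons 4 to 7, the length was not divisible by 3 and a stop codon followed within 3 passes. Of the 1232 other matched circRNAs, 460 (37.3%) had a length divisible by 3, against 5 of 11 members (45.5%, 16.8 to 76.6). Translation was not measured.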
